A study of Mus musculus with 16 samples.

Results

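The growth hormone and insulin-like growth factor (IGF) axis was followed in mouse mammary adipose tissue through 9 genes of the 23179 listed in the RNA-Seq matrix. The genes were taken by name for their role in the axis: the ligand Igf1, the receptors Ghr and Igf1r, and the binding proteins Igfbp2, Igfbp3, Igfbp4, Igfbp5, Igfbp6 and Igfbp7. All 9 were listed and all 9 passed the filter on low values, with at least 46 reads for Igfbp2 and at least 457 for each of the other genes in every library. The labels describe wt C57BL/6N mice, and the methods describe C57BL/6NCrl females that arrived at 8 weeks of age and had 1 week of acclimatization. CON-LFD mice were kept on the control diet D12450J, with 10% of energy as fat, and received sham surgery. DIO-HFD mice received sham surgery and stayed on the high-fat diet D12492, with 60% of energy as fat, which induces obesity. DIO-LFD mice were made obese on the same high-fat diet, received sham surgery and were changed to the low-fat diet. DIO-VSG mice were made obese in the same way and underwent vertical sleeve gastrectomy, an operation that removes much of the stomach, and then ate the low-fat diet. Surgery followed 15 weeks on diet, and 7 weeks later, at 22 weeks after randomization, every mouse was injected with E0771 mammary cancer cells in the 4th mammary fat pad. Tissue was collected 4 weeks after injection from the contralateral 9th fat pad, so all groups, controls included, carried a tumor elsewhere. There were 4 libraries per group, each named for its own animal, and no batch was named in the labels. The comparisons asked how obesity, weight loss by diet and weight loss by surgery altered this tissue. DIO-VSG differed from DIO-HFD in both operation and current diet, and DIO-HFD from CON-LFD in both obesity and diet. These cannot be told apart in those comparisons. DIO-VSG and DIO-LFD had the same diets and differed in the operation.

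Growth hormone from the pituitary binds its receptor GHR, which signals through JAK2 and STAT5 and induces Igf1, mainly in liver but also in adipose tissue. IGF-1 acts through the receptor tyrosine kinase IGF1R. In blood and tissue most IGF is held by the binding proteins, which can limit or prolong its action and are cleaved by proteases such as the pappalysins, and IGFBP7 binds IGFs with lower affinity than the others.

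Depth was similar across the series, with 46907377 to 57610899 reads per library. The labels give the tissue as normal contralateral mammary tissue, yet also name the injected E0771 line and a mammary cancer cell type for these samples. Against marker genes, all 10 of 10 adipocyte markers were listed, with summed levels of 456241 to 1748290 normalized counts per library (reads divided by the authors' size factor of the library) and Adipoq at 30428 to 123530. Markers of other cells differed greatly between fat pads. The B cell score, the mean log2 level of 10 markers centred on the 16 libraries, ran from −5.68 to 1.91 in CON-LFD, −4.35 to 2.30 in DIO-HFD, −0.16 to 1.02 in DIO-LFD and 1.77 to 2.00 in DIO-VSG. DIO-LFD replicate 1 had the lowest fibroblast and progenitor score, −1.72, and the highest endothelial score, 0.82. DIO-HFD replicate 4 stood apart with a keratinocyte score of 4.28, while Flg, a keratinocyte marker, was at 0 in 11 of the 16 libraries. The skeletal muscle score varied more, from −2.08 to −1.17 in DIO-HFD and up to 5.96 in DIO-LFD replicate 4, 3.92 in CON-LFD replicate 4 and 3.41 in DIO-VSG replicate 2. Of the mammary epithelium markers 9 of 10 were listed, without Wap, and Csn2 was at 0 in 2 libraries.

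Per kilobase of the longest annotated transcript, Igfbp7 was the most abundant of the 9 genes, with a mean of 11552 normalized counts per kb over the 16 libraries, followed by Ghr at 10845. Igfbp5 at 7484, Igfbp4 at 6208, Igfbp6 at 2839 and Igfbp3 at 2574 were intermediate. Igf1 had 1425, Igf1r 397 and Igfbp2 165 normalized counts per kb. The transcript isoform in use was not known, so this order is approximate where isoforms differ in length. The growth hormone receptor was thus listed at a far higher level per kb than the IGF receptor. The order of the means differed between groups, without a test: the mean of Ghr per kb was above that of Igfbp7 in DIO-HFD (13022 against 11272) and DIO-LFD (13263 against 12718), that of Igf1 was above Igfbp3 in CON-LFD (1633 against 1421), that of Igfbp3 above Igfbp6 in DIO-HFD (3959 against 2562) and that of Igfbp4 above Igfbp5 in DIO-VSG (4644 against 3807).

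The genes differed in how much they varied between mice. Igf1r and Igfbp7 were the steadiest, with a highest library 1.71 and 1.75 times the lowest. The same ratio was 2.67 for Igfbp4, 3.70 for Igf1, 4.80 for Ghr, 9.05 for Igfbp5, 9.92 for Igfbp3 and 12.5 for Igfbp2, and it was highest for Igfbp6, with 474 in the lowest and 9005 in the highest library. The plot of normalized read counts by group shows this spread for each gene.

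**Figure D1:**
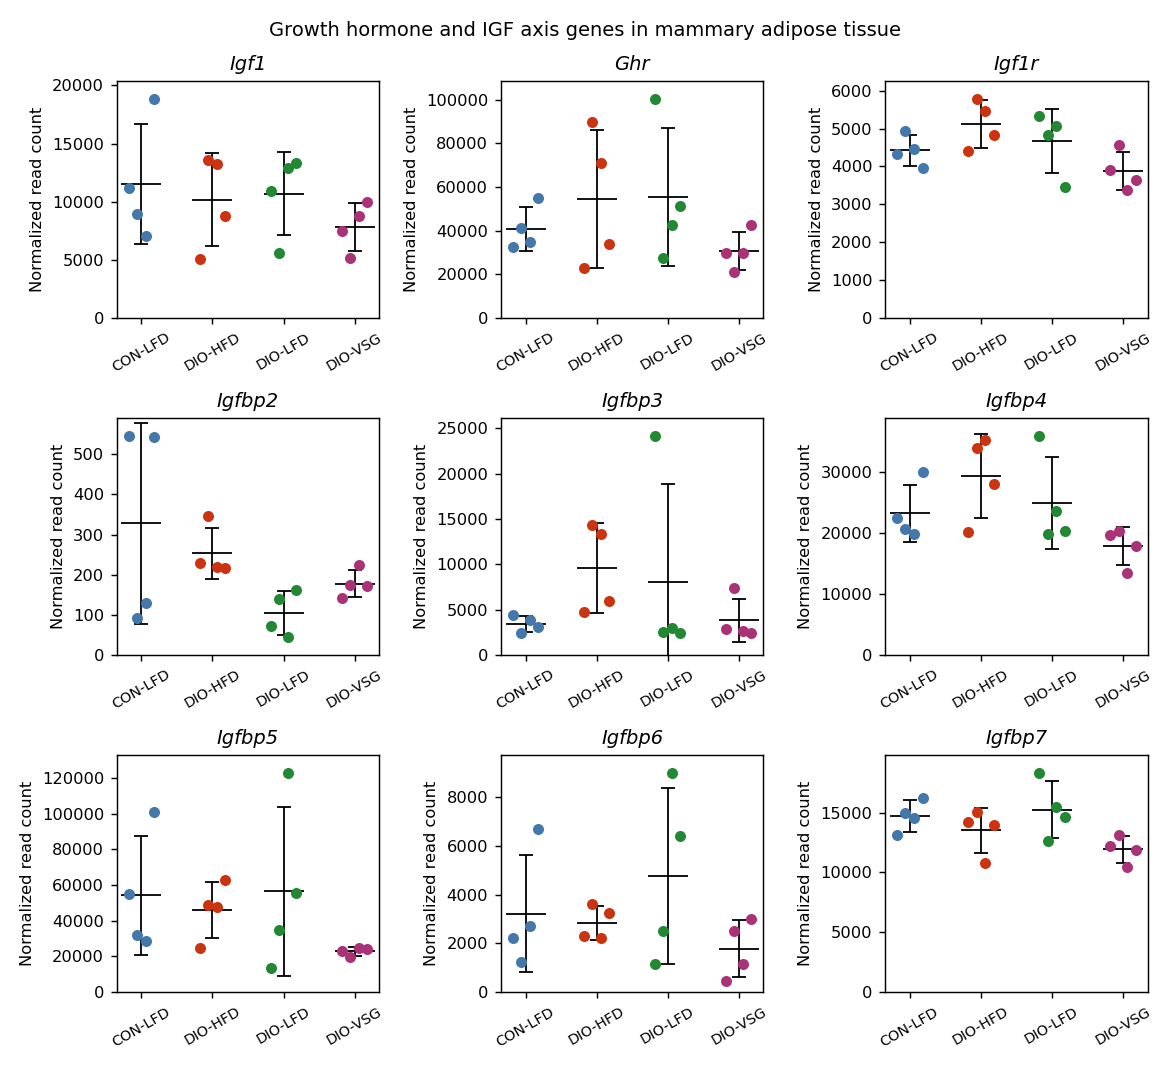
Normalized read counts of the 9 genes (y axes, each from 0) in the 4 libraries of each group (x axes, 1 point per library). Black bars give the mean and the standard deviation, which for Igfbp3 in DIO-LFD extends below 0 and is cut off at the axis. DIO-VSG has the lowest mean in 7 of the 9 panels, and 1 DIO-LFD library stands far above all others for Igfbp3.

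Relative to the spread between mice, none of the group differences in the 9 genes passed correction over all genes. The limma test on log2(normalized count + 1), with Benjamini-Hochberg adjustment over 21218 genes and a threshold of 0.05, called 0 of 9 in each of the 6 comparisons and 0 of 9 in the test of any difference among the 4 groups. A fit of the recovered reads with limma-voom also called 0 of 9 in all of these, and at an unadjusted limma P below 0.05 there were 0 to 2 of the 9 in each comparison. The limma test on log2(normalized count + 1) called few of all genes: 0.0377% in DIO-HFD and 0.00471% in DIO-LFD, each relative to CON-LFD. It called 0% in the other 4 comparisons and in the test over 4 groups. These totals depended on the libraries in the fit: a fit of only the 8 libraries compared called 1533 genes in DIO-VSG relative to DIO-LFD, and leaving out CON-LFD replicate 3 gave 873 in DIO-VSG and 128 in DIO-HFD relative to CON-LFD, each with 0 of the 9. The smallest of the 9 adjusted P values over the 6 comparisons was 0.268, for Igfbp7 in DIO-VSG relative to CON-LFD. What follows therefore describes levels and differences that did not reach the threshold.

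Igf1 encodes the circulating and local growth factor of the axis. CON-LFD libraries had 11184, 8932, 7069 and 18871 normalized counts, and DIO-HFD libraries 5100, 13552, 13254 and 8767. DIO-LFD libraries had 10929, 5563, 12894 and 13350, and DIO-VSG libraries 7444, 5170, 8751 and 9940. All 4 groups overlapped, and each of the first 3 held both low and high libraries. Group means ran from 11514 ± 5185 (SD, n = 4) in CON-LFD to 7826 ± 2043 (SD, n = 4) in DIO-VSG. The log2 difference of DIO-VSG from CON-LFD was −0.50, with a 95% confidence interval of −1.30 to 0.31 (limma adjusted P = 0.456). It was −0.23 without CON-LFD replicate 4, −0.31 without DIO-VSG replicate 2, −0.31 with the level of fibroblast and progenitor markers as a term in the model (an alternative chosen after seeing the data) and −0.0087 with that of lymphoid markers. The other 5 comparisons gave log2 differences between −0.41 and 0.10.

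Ghr encodes the receptor through which growth hormone acts directly on adipocytes. It had 32477, 41152, 34531 and 54828 normalized counts in CON-LFD and 22633, 89887, 71112 and 33827 in DIO-HFD. DIO-LFD libraries had 100438, 27289, 42341 and 51418, and DIO-VSG libraries 29658, 20920, 29554 and 42372. The groups overlapped, and the highest values came from 1 library of DIO-LFD and 2 of DIO-HFD, whose groups also held lower ones. DIO-VSG had the lowest mean, 30626 ± 8837 (SD, n = 4), and DIO-LFD the highest, 55372 ± 31650 (SD, n = 4). This pair gave the largest difference, a log2 value of −0.74 (95% confidence interval −1.67 to 0.20, limma adjusted P = 0.532). Without DIO-LFD replicate 1 it was −0.39, and with the lymphoid marker level as a term −0.46.

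Igf1r encodes the receptor tyrosine kinase for IGF-1. Its counts were 4328, 4942, 4470 and 3966 in CON-LFD and 4406, 5794, 5478 and 4827 in DIO-HFD. They were 5342, 4821, 5066 and 3447 in DIO-LFD and 3919, 4560, 3383 and 3640 in DIO-VSG. DIO-VSG was low against DIO-HFD, although its highest library lay above the lowest of DIO-HFD. The log2 difference of DIO-VSG from DIO-HFD was −0.40 ± 0.14 (SE), a fold of 0.756, with unadjusted P = 0.0121 and limma adjusted P = 0.302. The exact permutation test of the same 4 against 4 libraries gave a two-sided P = 0.0571, where 0.0286 is the smallest value that 4 against 4 can give.

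Igfbp3, the main carrier of IGFs in serum, was the 1 gene of the 9 whose obese and lean libraries separated. CON-LFD libraries had 4414, 2478, 3825 and 3048 normalized counts, and DIO-HFD libraries 4705, 14364, 13325 and 5941. DIO-LFD libraries had 24197, 2592, 3018 and 2446, and DIO-VSG libraries 2898, 7404, 2630 and 2440. All DIO-HFD libraries lay above all CON-LFD libraries, while each weight loss group held 3 libraries in or below the CON-LFD range and 1 above it. In DIO-HFD relative to CON-LFD 1 of the 9 genes, Igfbp3, did not overlap between groups, as did 4.76% of all genes. The log2 difference was 1.35 ± 0.64 (SE), a fold of 2.54 (unadjusted P = 0.0548, limma adjusted P = 0.398, exact permutation two-sided P = 0.0286). With array weights, which let each library count by its fit, the difference was 0.70 ± 0.44 (SE, limma adjusted P = 0.259).

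The error of this difference rested on libraries outside the comparison, since all groups share 1 estimate of the spread: without DIO-LFD replicate 1 the same 1.35 had an SE of 0.40 (unadjusted P = 0.00485, limma adjusted P = 0.222), and without DIO-VSG replicate 2 an unadjusted P of 0.0484 (limma adjusted P = 0.401). The DIO-LFD result for Igfbp3 also rested on replicate 1. With that library the log2 difference of DIO-LFD from DIO-HFD was −0.88 (limma adjusted P = 0.804), and without it −1.68 (limma adjusted P = 0.225), while without DIO-LFD replicate 4 it was −0.57 (limma adjusted P = 0.972). Without DIO-LFD replicate 1 the difference of DIO-LFD from CON-LFD turned from 0.47 to −0.33, and that of DIO-VSG from DIO-LFD from −0.44 to 0.36. DIO-VSG differed from DIO-HFD by −1.32, and by −1.69 to −1.07 with single libraries left out.

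Igfbp4, an inhibitory binding protein released from IGFs by pappalysin cleavage, was the gene with the smallest unadjusted P value. It had 22404, 20630, 19755 and 29867 normalized counts in CON-LFD and 20159, 33916, 35190 and 28026 in DIO-HFD. DIO-LFD libraries had 35864, 19719, 23586 and 20222, and DIO-VSG libraries 19556, 20327, 13433 and 17844. DIO-VSG libraries were low, and they overlapped DIO-HFD through replicate 1 of DIO-HFD alone. The log2 difference of DIO-VSG from DIO-HFD was −0.71 ± 0.22 (SE), a fold of 0.613, with unadjusted P = 0.00693 and limma adjusted P = 0.274. In the limma test over the 4 groups 1 of the 9 genes, Igfbp4, had an unadjusted P below 0.05, as did 12.7% of all genes. Its unadjusted P was 0.0469 in that test and its limma adjusted P was 0.393.

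The promoter windows of Igfbp3 and Igfbp4 are shown because the levels of these genes ran together across libraries, as given further on. Each sequence covers 250 bases before and 50 bases after the RefSeq start, 5′ to 3′ on the gene's strand, in GRCm38.p6. Capitals mark matches on either strand to 4 motifs. TATAAA is the TATA box, GGGCGG is the GC box read by Sp factors, TTCNNNGAA is the gamma-activated sequence read by STAT factors, and TGTTTAC is a site of forkhead factors.
Igfbp3, chr11:7213874-7214173, minus strand: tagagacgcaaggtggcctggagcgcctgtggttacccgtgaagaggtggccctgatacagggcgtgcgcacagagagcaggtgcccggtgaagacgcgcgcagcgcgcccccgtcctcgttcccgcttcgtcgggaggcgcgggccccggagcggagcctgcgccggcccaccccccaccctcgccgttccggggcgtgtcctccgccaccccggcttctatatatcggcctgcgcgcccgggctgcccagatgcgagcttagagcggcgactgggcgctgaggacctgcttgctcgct
Igfbp4, chr11:99040994-99041293, plus strand: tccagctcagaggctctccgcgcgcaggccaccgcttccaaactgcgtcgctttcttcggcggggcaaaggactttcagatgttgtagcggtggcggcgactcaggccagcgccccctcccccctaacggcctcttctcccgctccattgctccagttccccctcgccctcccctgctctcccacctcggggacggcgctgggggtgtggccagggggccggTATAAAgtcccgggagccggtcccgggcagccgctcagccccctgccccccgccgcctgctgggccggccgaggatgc
Igfbp4 held 1 TATAAA match, which started 28 bases before the gene start, at −28, and Igfbp3 held no match to any of the 4 motifs.

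Igfbp5, a binding protein that also attaches to extracellular matrix, was among the most variable. CON-LFD libraries had 55004, 31959, 28923 and 100734 normalized counts, and DIO-HFD libraries 25007, 48942, 47553 and 63099. DIO-LFD libraries had 13576, 34647, 122870 and 55426, and DIO-VSG libraries 22942, 19501, 24702 and 24321. The 4 DIO-VSG libraries were close together and below every CON-LFD and every DIO-HFD library, while DIO-LFD spanned the whole range. In each of these 2 comparisons Igfbp5 was the only one of the 9 genes without overlap, against 6.59% of all genes for DIO-VSG and DIO-HFD and 7.02% for DIO-VSG and CON-LFD. The log2 difference was −0.94 ± 0.55 (SE) from DIO-HFD (limma adjusted P = 0.420, exact permutation P = 0.0286) and −1.06 ± 0.55 (SE) from CON-LFD (limma adjusted P = 0.306, exact permutation P = 0.0286). Both permutation values only restate the lack of overlap. The difference from CON-LFD was −0.70 without CON-LFD replicate 4 and −0.51 with the fibroblast and progenitor marker level as a term. The 2 comparisons share the DIO-VSG libraries.

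Igfbp6, which binds IGF-2 in preference to IGF-1, had the widest range. Its counts were 2209, 1238, 2719 and 6709 in CON-LFD and 2311, 3610, 2222 and 3252 in DIO-HFD. They were 1158, 2500, 9005 and 6429 in DIO-LFD and 474, 2522, 1156 and 2998 in DIO-VSG. All groups overlapped, and DIO-HFD was the tightest. The largest difference, of DIO-VSG from DIO-LFD, was −1.33 on the log2 scale (95% confidence interval −2.80 to 0.14, limma adjusted P = 0.509), and −0.80 without DIO-VSG replicate 1.

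The promoter windows of Igfbp5 and Igfbp6, whose levels also ran together, follow with the same marking.
Igfbp5, chr1:72874816-72875115, minus strand: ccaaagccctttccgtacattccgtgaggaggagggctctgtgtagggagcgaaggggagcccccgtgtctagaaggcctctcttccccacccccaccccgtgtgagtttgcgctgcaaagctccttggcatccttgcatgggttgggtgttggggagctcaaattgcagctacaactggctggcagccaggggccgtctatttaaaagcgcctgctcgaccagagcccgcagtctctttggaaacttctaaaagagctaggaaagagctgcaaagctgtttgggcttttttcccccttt
Igfbp6, chr15:102143936-102144235, plus strand: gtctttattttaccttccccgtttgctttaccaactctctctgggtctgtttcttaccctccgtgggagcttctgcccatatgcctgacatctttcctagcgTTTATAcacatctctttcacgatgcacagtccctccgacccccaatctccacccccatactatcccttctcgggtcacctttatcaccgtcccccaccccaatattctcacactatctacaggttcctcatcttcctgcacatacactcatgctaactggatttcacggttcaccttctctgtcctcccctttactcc
The Igfbp6 window held 1 match, the reverse complement of TATAAA, which started at −148, and the Igfbp5 window held none. A window was found for all 9 genes, 11 windows in all. TATAAA was matched in 3 of the 11, of Igfbp4, Igfbp6 and Ghr (at −188), GGGCGG in 4 of the 11, of Igf1r, Igfbp2, Igfbp7 and the other window of Ghr, and TTCNNNGAA and TGTTTAC in 0 of the 11. Of 32817 mouse windows of this length, 13.6% held TATAAA, 35.6% GGGCGG, 8.29% TTCNNNGAA and 3.65% TGTTTAC. No window of the 9 genes held matches to more than 1 of these motifs, so no matches of different motifs overlapped. A missing match says only that these letters are not in the window.

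Igfbp2, a binding protein that responds to leptin and insulin in other tissues, was the least abundant. It had 546, 92.2, 129 and 544 normalized counts in CON-LFD and 229, 347, 218 and 216 in DIO-HFD. DIO-LFD libraries had 72.1, 139, 43.8 and 161, and DIO-VSG libraries 142, 174, 224 and 172. CON-LFD was split into a pair of high and a pair of low libraries, and every DIO-LFD library lay below every DIO-HFD library. DIO-LFD relative to DIO-HFD gave a log2 difference of −1.42 ± 0.55 (SE), a fold of 0.373 (unadjusted P = 0.0206, limma adjusted P = 0.5005, exact permutation P = 0.0286). The permutation value only restates the lack of overlap. Of all genes, 4.51% did not overlap in this comparison and 8.53% had an unadjusted P below 0.05, and 1 of the 9, Igfbp2, met each condition. Igfbp2 was no longer below 0.05 without DIO-HFD replicate 2, its highest DIO-HFD library, without DIO-LFD replicate 1 or without DIO-LFD replicate 3. DIO-LFD relative to CON-LFD gave −1.40 (unadjusted P = 0.0222, limma adjusted P = 0.707), with overlap. Igfbp2 at chr1:72824503-72852474 on the plus strand and Igfbp5 at chr1:72857932-72874884 on the minus strand lie end to end, 5457 bases apart, and their levels had a Pearson's r of 0.21 over the 16 libraries.

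Igfbp7, which is made by vessel and stromal cells, varied least among the binding proteins. Its counts were 13095, 14997, 14570 and 16262 in CON-LFD and 14259, 15078, 10789 and 13977 in DIO-HFD. They were 18330, 12621, 15438 and 14660 in DIO-LFD and 12192, 13140, 10465 and 11922 in DIO-VSG. DIO-VSG was low against CON-LFD and DIO-LFD, each time with overlap of 1 pair of libraries. The log2 difference of DIO-VSG was −0.35 ± 0.13 (SE) from DIO-LFD (unadjusted P = 0.0178, limma adjusted P = 0.509) and −0.30 ± 0.13 (SE) from CON-LFD (unadjusted P = 0.0336, limma adjusted P = 0.268).

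Counted by comparison, DIO-HFD relative to CON-LFD had 0 of the 9 genes at an unadjusted limma P below 0.05, against 12.9% of all genes. The share was 8.53% without CON-LFD replicate 2 and 19.7% without CON-LFD replicate 3, each with 0 of the 9. Igfbp3 alone was below 0.05 without DIO-LFD replicate 1 (13.5% of all genes), without DIO-VSG replicate 2 (12.4%), with only the 8 libraries compared (7.94%) and with the lymphoid (16.8%) or the fibroblast and progenitor marker level as a term (13.9%). Igfbp3 and Igfbp4 were below it without DIO-HFD replicate 1 (11.1%). By sign 6 were higher and 3 lower, with a median log2 difference of 0.07, where 52.7% of all genes were higher and the median over all genes was 0.02. The sign of Igfbp2 turned with quantile normalization (−0.0078) and on the deposited scale (−0.052). The values of the 9 genes ran from −0.18 for Igf1 to 1.35 for Igfbp3. Apart from Igfbp3, the largest difference in either direction in the fit of all libraries was 0.33, for Igfbp4. Without DIO-HFD replicate 1 Igfbp4 was 0.50 and Ghr 0.59. Igfbp6 was 0.51 without CON-LFD replicate 4, and Igfbp2 was −0.75 with array weights.

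In DIO-VSG relative to DIO-HFD all 9 genes were lower by sign, from −0.17 for Igfbp7 to −1.32 for Igfbp3, with a median of −0.66, and only the lymphoid marker level as a term turned a sign, that of Igf1 (0.041). Of all genes, 47.5% were lower and the median was 0.02. Single libraries moved the sizes of 4 genes by over 1.5 times. Igf1 (−0.32) was −0.61 without DIO-HFD replicate 1, −0.14 without replicate 2, −0.15 without replicate 3 and −0.13 without DIO-VSG replicate 2. Ghr (−0.66) was −1.02 without DIO-HFD replicate 1 and −0.35 without replicate 2. Igfbp6 (−0.97) was −0.44 without DIO-VSG replicate 1, and Igfbp7 (−0.17) was −0.28 without DIO-HFD replicate 3 and −0.11 without DIO-VSG replicate 3. Igfbp3 and the other genes were compared here with the same 4 DIO-HFD libraries that entered the comparison with CON-LFD. At an unadjusted P below 0.05, 2 of the 9 were lower, Igf1r and Igfbp4, against 8.12% of all genes lower and 13.2% in either direction. Both counts depended on the libraries: 4 of the 9 and 27.5% of all genes without DIO-HFD replicate 1, 2 and 7.87% without replicate 2, 3 and 8.67% without replicate 3, 4 and 13.6% without DIO-LFD replicate 1, 3 and 12.9% without DIO-VSG replicate 2, 2 and 7.47% without DIO-VSG replicate 3, and 5 of the 9 and 2550 of 21218 genes with only the 8 libraries compared. When libraries were weighted by their fit with the array weights of limma, 4 of the 9 passed the adjusted threshold, as did 17.6% of all genes. These were Igfbp4 (limma adjusted P = 0.00516), Igfbp5 (adjusted P = 0.0171), Igf1r (adjusted P = 0.0232) and Igfbp7 (adjusted P = 0.0370), all lower in DIO-VSG. The same weights brought Igf1 to −0.14, Ghr to −0.18 and Igfbp2 from −0.49 to −0.31. In that fit DIO-HFD replicate 4, the library with the high keratinocyte score, received a weight of 10.9 and the other DIO-HFD libraries 0.222 to 0.484. In the test over the 4 groups the same weights also gave 4 of 9, against 34.8% of all genes.

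**Figure D2:**
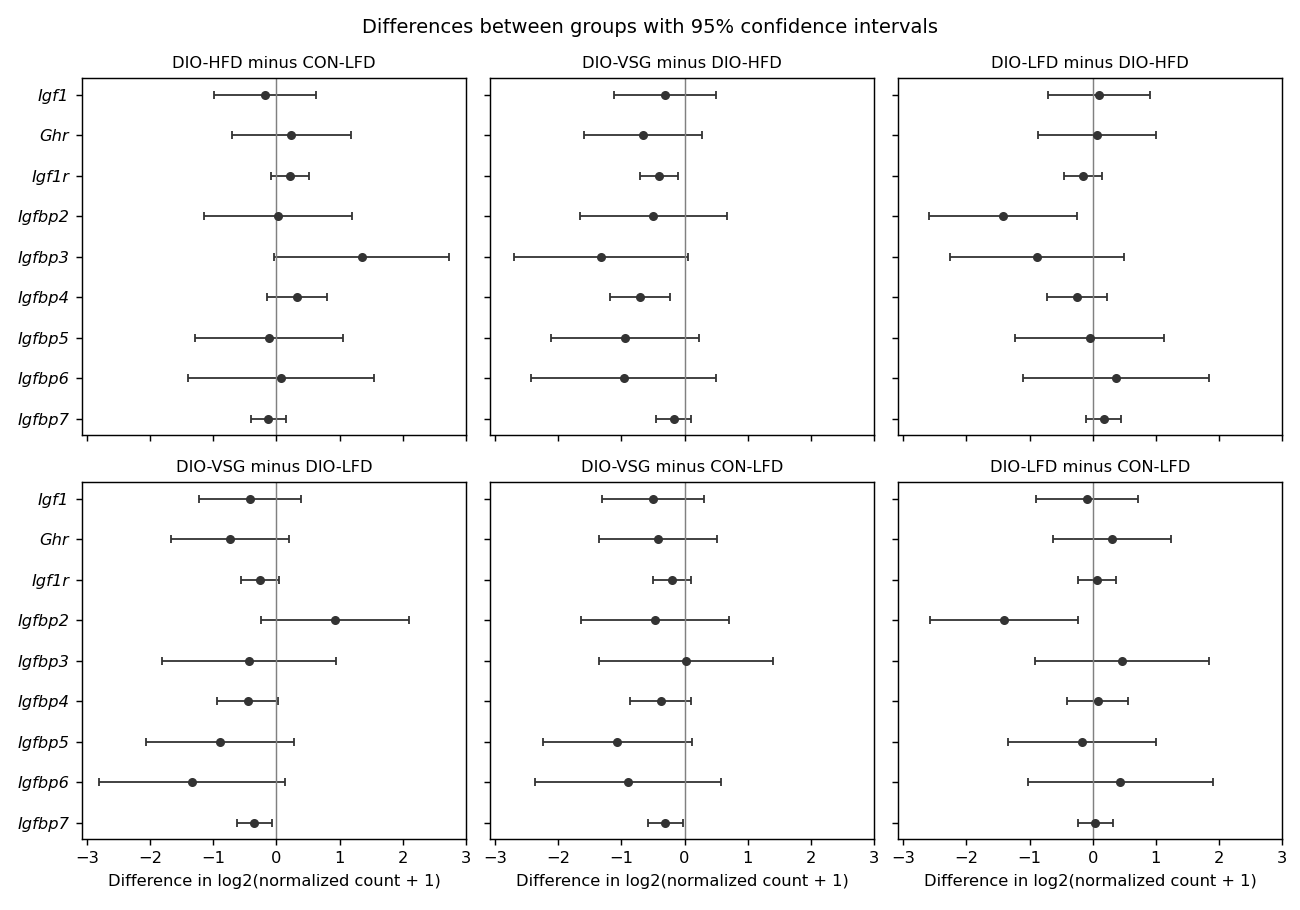
Differences in log2(normalized count + 1) of the 9 genes in the 6 comparisons (x axis), with 95% confidence intervals from limma (horizontal bars). For DIO-VSG minus DIO-HFD every point lies below 0, and the intervals of Igf1r and Igfbp4 exclude 0 before correction for the number of genes tested.

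Weight loss by diet showed no common direction by sign. In DIO-LFD relative to DIO-HFD 4 of the 9 were higher and 5 lower by sign, with a median of −0.05, where 48.4% of all genes were lower, and Ghr turned from 0.07 to −0.046 with quantile normalization. Relative to CON-LFD, 6 were higher in DIO-LFD and 3 lower, where 53.1% of all genes were higher. In this pair 1 of the 9 (Igfbp2) had an unadjusted P below 0.05 against 6.26% of all genes, and 0 of 9 were without overlap against 3.53%. The count was 0 without CON-LFD replicate 1 (3.96% of all genes), CON-LFD replicate 4 (5.34%), DIO-LFD replicate 1 (5.69%) or DIO-LFD replicate 3 (5.67%) and with only the 8 libraries compared (4.90%), and the share of all genes was 12.5% without CON-LFD replicate 3. Weight loss by surgery showed mostly lower values by sign against both low-fat groups. DIO-VSG was lower than DIO-LFD by sign in 8 of 9 genes, Igfbp2 being the exception, and lower than CON-LFD in 8 of 9, Igfbp3 being the exception at 0.03. The sign of Igfbp3 against CON-LFD was negative with array weights (−0.27), and that of Ghr was positive with the lymphoid marker level as a term (0.23). Of all genes, 52.7% were lower in DIO-VSG than in DIO-LFD and 52.2% lower than in CON-LFD. At an unadjusted P below 0.05 each of these 2 comparisons had 1 of the 9, Igfbp7, against 9.71% and 17.8% of all genes, and 0 of 9 were without overlap from DIO-LFD against 18.8% of all genes. These counts depended on single libraries. Against DIO-LFD, Igfbp7 was no longer below 0.05 without DIO-LFD replicate 1, without DIO-VSG replicate 3 or with quantile normalization. The count there was 0 of the 9 without DIO-VSG replicate 3 (6.44% of all genes) and 3 without DIO-LFD replicate 2 (8.64%), without DIO-LFD replicate 4 (7.95%) or without DIO-VSG replicate 2 (8.60%). The share of all genes was lowest, 5.11%, without DIO-VSG replicate 1, highest among the fits that left out 1 library, 13.3%, without DIO-HFD replicate 1, and 25.3% with only the 8 libraries compared. Against CON-LFD, Igfbp7 was no longer below 0.05 without CON-LFD replicate 2, 3 or 4, without DIO-VSG replicate 3 or 4, with quantile normalization or with the lymphoid term. The share of all genes there was 8.95% without CON-LFD replicate 4, 9.72% without replicate 2, 30.5% without replicate 3 and 5.01% with the lymphoid term. The comparisons of DIO-VSG share its 4 libraries, so these counts are not independent of each other.

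As an order of levels, DIO-VSG had the lowest group mean for Igf1, Ghr, Igf1r, Igfbp4, Igfbp5, Igfbp6 and Igfbp7. DIO-LFD was lowest for Igfbp2 and CON-LFD for Igfbp3. Groups next to each other in these orders overlapped for every gene except Igfbp5, where DIO-HFD, the third, and DIO-VSG, the fourth, stood apart.

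The makeup of the binding protein transcripts differed between libraries of the same group. Of the summed level per kb of the 6 binding proteins, Igfbp7 took 39.3% ± 7.87 (SD, n = 16), Igfbp5 22.9%, Igfbp4 20.5%, Igfbp6 8.65%, Igfbp3 8.09% and Igfbp2 0.553%. Igfbp7 was the largest in 13 of 16 libraries. Igfbp5 led in CON-LFD replicate 4 with 36.6% and in DIO-LFD replicate 3 with 41.9%, and Igfbp4 led in DIO-HFD replicate 3 with 27.2%. In DIO-LFD replicate 1 Igfbp3 took 26.3%, against 2.55% to 16.3% in the other libraries. The share of Igfbp7 was 43.9% to 48.8% in DIO-VSG, 26.6% to 46.6% in DIO-HFD, 26.3% to 42.3% in DIO-LFD and 29.6% to 49.2% in CON-LFD.

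**Figure D3:**
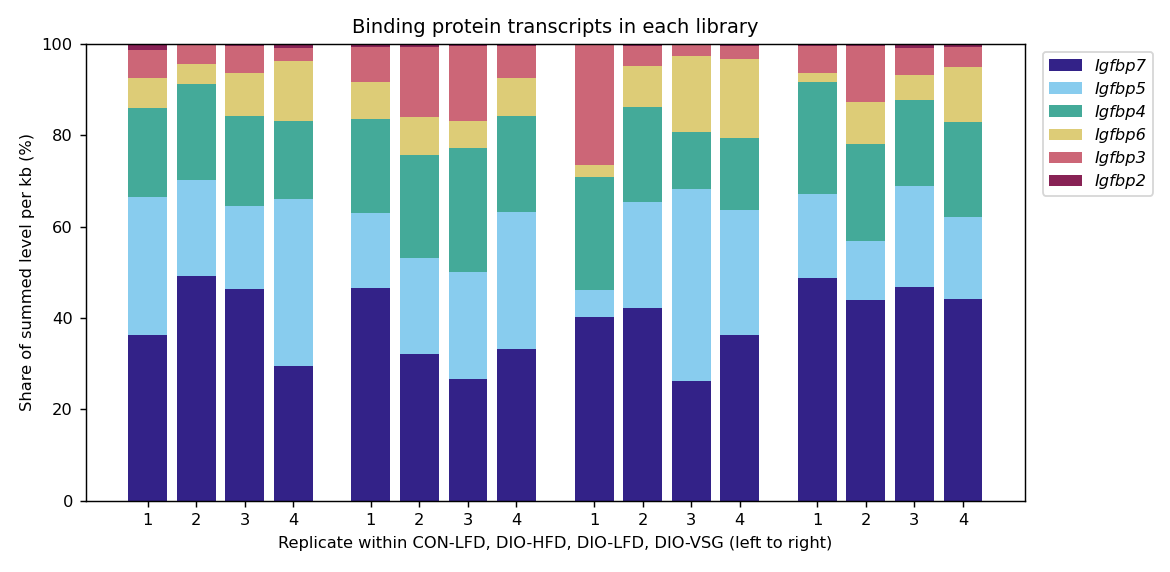
Share of each binding protein in their summed level per kb (y axis, percent) in each library (x axis, replicates 1 to 4 of each group). Igfbp7 is the largest in 13 of 16 bars, Igfbp3 is wide in DIO-LFD replicate 1, and Igfbp2 is below 1.39% everywhere.

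The summed level was lowest in DIO-VSG, at 21723 ± 2672 normalized counts per kb (SD, n = 4), against 31906 ± 9509 in CON-LFD, 33324 ± 5672 in DIO-HFD and 36336 ± 9976 in DIO-LFD. DIO-VSG libraries ran from 18637 to 24962, below the lowest DIO-HFD (25506) and CON-LFD (25411) libraries but overlapping DIO-LFD, whose lowest was 24858, and the sum was not tested. The sum was 15.02 to 34.05 times the Igf1 level per kb in DIO-VSG and 17.96 to 35.26 times in DIO-HFD, so this ratio overlapped.

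The 9 genes did not vary as one. Over the 16 libraries, which come from 4 groups and differ in cell content, Pearson's r on the log2 scale was 0.77 for Igfbp3 and Igfbp4 (Spearman's rho 0.71), 0.77 for Igf1 and Ghr (rho 0.84), 0.75 for Igfbp4 and Ghr (rho 0.65), and 0.75 for Igfbp5 and Igfbp6 (rho 0.68). After group means were removed these became 0.76, 0.77, 0.73 and 0.70. Igf1 and its own receptor Igf1r had an r of 0.04, and Igfbp3 and Igfbp5 of −0.24. These are descriptions of 16 fat pads, without a test.

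The levels followed different cell type markers, as the heat map of correlations shows. Igfbp6 and Igfbp5 ran with the 10 fibroblast and progenitor markers (r = 0.87 and 0.85, and 0.94 and 0.86 within groups). Ghr and Igf1 ran with the 10 adipocyte markers (r = 0.82 and 0.76, and 0.87 and 0.73 within groups). Igfbp4 and Igfbp3 had their highest overall r with the 10 endothelial markers (0.74 and 0.73), and Ghr had 0.83 with the same list. Within groups these were 0.62, 0.68 and 0.81, and Igfbp4 had a higher r, 0.74, with the adipocyte markers. Without the 2 libraries farthest from the median endothelial score r fell to 0.39 for Igfbp3 and 0.52 for Igfbp4. After the same step on their own scores, r was 0.57 for Igfbp3 with macrophage markers (rho 0.63 over all 16 libraries, against 0.43 with endothelial markers), 0.62 for Igfbp4 with adipocyte markers, 0.92 for Igfbp6 with fibroblast markers and 0.77 for Ghr with adipocyte markers. Ghr, Igf1 and Igfbp4 had an r of −0.57, −0.56 and −0.55 with the B cell markers. Without the 2 libraries farthest from the median B cell score these were −0.68, −0.75 and −0.70. With the T cell markers they were −0.63, −0.61 and −0.63 over the 16 libraries.

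**Figure D4:**
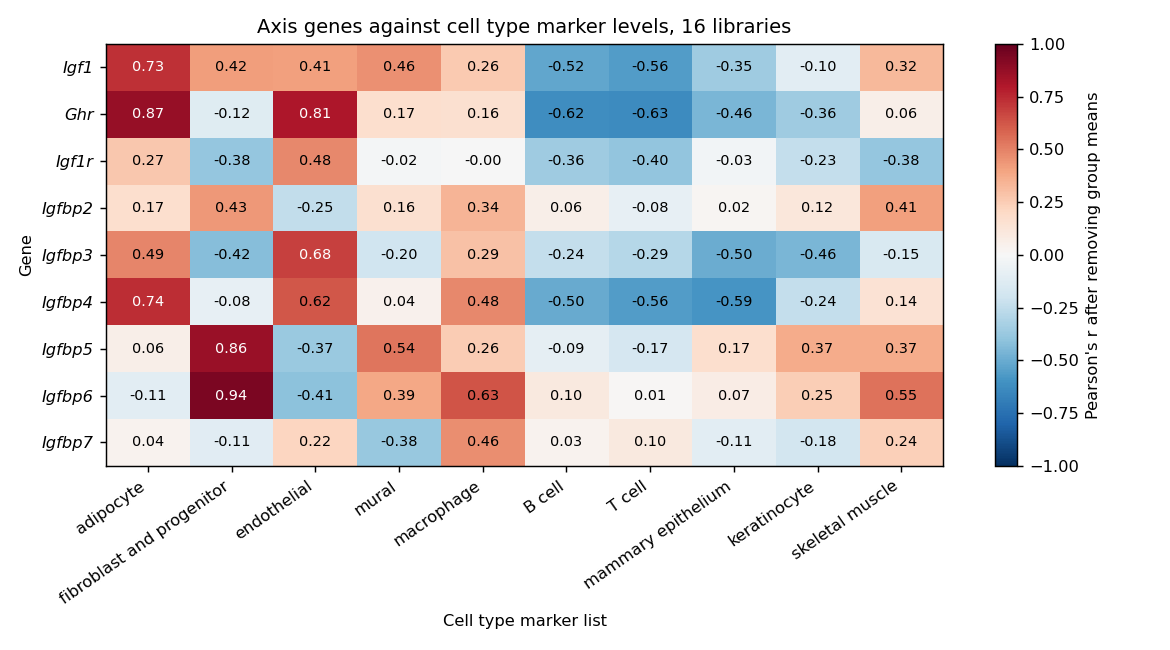
Pearson's r between each of the 9 genes (rows) and the mean log2 level of each cell type marker list (columns) over 16 libraries, after removal of group means (color scale from −1 to 1). Igfbp6 and Igfbp5 are highest with fibroblast and progenitor markers, and Ghr and Igf1 with adipocyte markers.

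**Figure D5:**
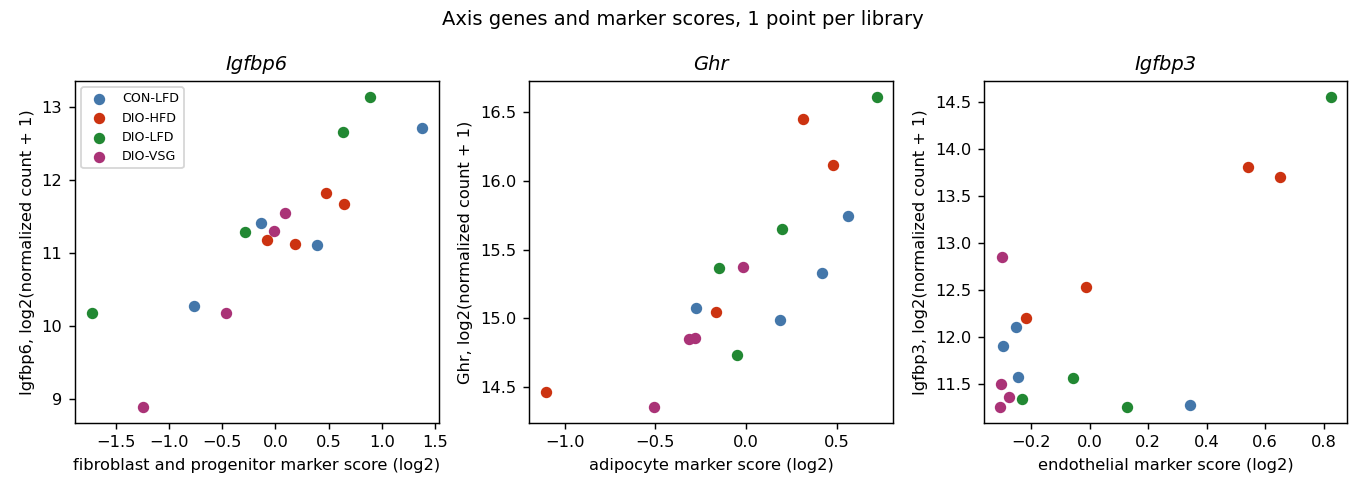
Log2 levels of Igfbp6, Ghr and Igfbp3 (y axes) against the fibroblast and progenitor, adipocyte and endothelial marker scores (x axes, log2), 1 point per library colored by group. Igfbp6 follows its marker score across all groups, and the highest Igfbp3 point is DIO-LFD replicate 1, which also has the highest endothelial score.

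The marker levels differed between libraries and, for some lists, between groups. The fibroblast and progenitor list, 10 of 10 measured, had summed levels of 61697 to 182016 normalized counts in DIO-VSG, 134024 to 222745 in DIO-HFD, 97890 to 414712 in CON-LFD and 52424 to 276665 in DIO-LFD. The endothelial list, 10 of 10 measured, ran from 50569 to 53417 in DIO-VSG and from 57168 to 95287 in DIO-HFD, without overlap, while CON-LFD (50796 to 74309) and DIO-LFD (52886 to 108208) overlapped DIO-VSG. The mural list, 8 of 8 measured, ran from 35965 to 47089 in DIO-VSG, below its 52972 to 85193 in DIO-HFD and 47922 to 80908 in CON-LFD but overlapping DIO-LFD (38703 to 65539), and Igfbp5 had an r of 0.67 with it over the 16 libraries. The adipocyte list ran from 703287 to 970168 in DIO-VSG and from 456241 to 1459160 in DIO-HFD. The B cell list ran from 75928 to 88824 in DIO-VSG and from 1693 to 111679 in DIO-HFD. The part of these markers in the lower levels of the 9 genes in DIO-VSG was not tested, and in whole tissue fewer cells of a type and less RNA per cell cannot be told apart.

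With the fibroblast and progenitor marker level as a term, an alternative chosen after seeing the data, the log2 difference of DIO-VSG from DIO-HFD went from −0.94 to −0.32 for Igfbp5, from −0.97 to −0.10 for Igfbp6, from −0.49 to −0.18 for Igfbp2 and from −0.32 to −0.11 for Igf1. The same term moved the other 5 away from 0: Igfbp3 went from −1.32 to −1.69, Igf1r from −0.40 to −0.47, Ghr from −0.66 to −0.73, Igfbp4 from −0.71 to −0.73 and Igfbp7 from −0.17 to −0.19. With the lymphoid marker level as a term, Ghr went from −0.66 to −0.18, Igf1 from −0.32 to 0.041 and Igfbp4 from −0.71 to −0.50. Igf1r went from −0.40 to −0.32, Igfbp3 from −1.32 to −1.02 and Igfbp5 from −0.94 to −0.82. Igfbp6 went from −0.97 to −1.04 and Igfbp7 from −0.17 to −0.19, and Igfbp2 stayed at −0.49. With either term, 0 of the 9 passed the adjusted threshold.

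For each gene the 3 tested genes with the highest Pearson's r over the 16 libraries were found among 14808 genes with a mean of at least 100 normalized counts. Those of Igf1 included Eid2 and Bcorl1 (r = 0.95 and 0.94). Ghr was nearest to Mcam, Irs3 and Gm10687 (0.96, 0.96 and 0.95), and Igf1r to Tctn3, Acvr2b and Spen (0.89, 0.89 and 0.88). Among the binding proteins, Igfbp6 was nearest to Pla1a, Antxr1 and Adgrd1 (0.98, 0.95 and 0.95), Igfbp5 to Olfml2b, Aldh1a3 and Loxl1 (0.92, 0.91 and 0.90), and Igfbp4 to Fam124a, Plcd1 and Slit3 (0.95, 0.95 and 0.94). Igfbp3 was nearest to Klf7, Tacc1 and 4930486L24Rik (0.88, 0.87 and 0.87), Igfbp7 to Pcdhga10, Entpd1 and Apoe (0.85, 0.85 and 0.84), and Igfbp2 to Gm12715, Calm2 and B2m (0.79, 0.78 and 0.77). Igfbp2 thus had the weakest likeness to any other gene.

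Of 33 other genes of the axis taken from a list of ligands, receptors, proteases and signal proteins, 29 were measured. Ghsr, Ghrhr, Igfbp1 and Igfbpl1 were not among the listed genes. None of the 29 passed the adjusted threshold in any comparison with limma or with limma-voom. Without CON-LFD replicate 3, Igf2 (limma adjusted P = 0.0442) and Socs3 (limma adjusted P = 0.0493) passed in DIO-VSG relative to CON-LFD, as did 4.11% of all genes. At an unadjusted P below 0.05 in DIO-HFD relative to CON-LFD, 1 was higher and 3 lower, against 5.23% and 7.66% of all genes, and in DIO-VSG relative to DIO-HFD 2 were higher and 4 lower, against 5.05% and 8.12%. DIO-LFD had 5 higher and 0 lower relative to DIO-HFD, against 5.37% and 3.16%, and relative to CON-LFD 1 higher and 0 lower, against 3.23% and 3.03%. DIO-VSG had 0 higher and 3 lower than DIO-LFD, against 4.3% and 5.41%, and 2 higher and 4 lower than CON-LFD, against 10.2% and 7.55%. Between DIO-VSG and DIO-HFD 5 of the 29 were without overlap (Prlr, Pappa2, Shc1, Akt1 and Stat5a), against 6.59% of all genes. Between DIO-LFD and DIO-HFD it was 1 of the 29, against 4.51%.

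Among ligands and receptors, Prlr, the receptor for prolactin and a relative of GHR, had the smallest unadjusted P value. It had 18399, 35122, 34272 and 13063 normalized counts in CON-LFD and 7188, 18775, 13923 and 11530 in DIO-HFD. DIO-LFD libraries had 23072, 59882, 29930 and 35527, and DIO-VSG libraries 23300, 33112, 31034 and 28583. Every library of both weight loss groups lay above every DIO-HFD library. The log2 difference from DIO-HFD was 1.52 in DIO-LFD (unadjusted P = 0.000894, limma adjusted P = 0.317) and 1.24 in DIO-VSG (unadjusted P = 0.00403, limma adjusted P = 0.259), and DIO-HFD differed from CON-LFD by −0.93 (limma adjusted P = 0.307). Igf2, the second IGF ligand, differed between DIO-VSG and CON-LFD by −0.57 (limma adjusted P = 0.268). Gh itself, a pituitary hormone, was near the floor in this tissue, with 0 to 15.7 normalized counts in CON-LFD, 1.11 to 37.9 in DIO-HFD, 2.18 to 16.9 in DIO-LFD and 13.5 to 34.2 in DIO-VSG, and its P value in DIO-VSG relative to CON-LFD was 0.0241 unadjusted and 0.268 adjusted (limma).

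Among regulators of the binding proteins, Pappa and Pappa2 encode the pappalysin proteases and Stc2 a stanniocalcin that inhibits them. Pappa2 had 48.1, 45.4, 210 and 90.1 normalized counts in DIO-HFD and 18.7, 45.0, 28.7 and 20.0 in DIO-VSG, without overlap although the nearest pair of libraries nearly touched, and the log2 difference was −1.57 (limma adjusted P = 0.315). Pappa differed between DIO-VSG and CON-LFD by −0.97 (limma adjusted P = 0.268). Its counts overlapped, at 134 to 328 in DIO-VSG and 198 to 739 in CON-LFD, where replicate 1 was the highest. Stc2 differed from DIO-HFD by 0.95 in DIO-VSG (limma adjusted P = 0.294) and by 0.90 in DIO-LFD (limma adjusted P = 0.483), and DIO-HFD from CON-LFD by −0.71 (limma adjusted P = 0.380).

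Among signal proteins, Socs3, a feedback inhibitor of JAK signaling, had a mean of 990 normalized counts in CON-LFD, against 1486 in DIO-HFD, 1601 in DIO-LFD and 1618 in DIO-VSG (log2 differences 0.59, 0.68 and 0.71). Socs2, the feedback inhibitor most tied to growth hormone, and Stat5a, its transcription factor, differed between DIO-LFD and DIO-HFD by 0.70 and 0.58 (limma adjusted P = 0.584 for each). Grb10, an adaptor that dampens insulin and IGF receptors, was at a mean of 3101 in DIO-VSG, and the log2 difference was −0.56 from DIO-HFD, −0.61 from DIO-LFD and −0.72 from CON-LFD (limma adjusted P = 0.359, 0.509 and 0.268). Pik3r1, a regulatory subunit of phosphoinositide 3-kinase, differed by 0.44 between DIO-LFD and DIO-HFD, by −0.51 between DIO-VSG and DIO-LFD and by −0.40 between DIO-VSG and CON-LFD. Shc1, an adaptor of IGF1R, and the kinase Akt1 each differed by −0.23 between DIO-VSG and DIO-HFD without overlap (limma adjusted P = 0.308 and 0.305), and Shc1 by −0.19 between DIO-VSG and DIO-LFD. In the test over the 4 groups the limma adjusted P was 0.375 for Socs3, 0.391 for Pik3r1 and 0.402 for Shc1. Akt2, the main AKT kinase of insulin action in adipocytes, differed between DIO-HFD and CON-LFD by −0.51 (limma adjusted P = 0.347).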

How the data were processed

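Mammary adipose RNA was profiled in 16 libraries, 4 per group, with groups and replicate numbers from the labels. In the methods the authors aligned stranded total RNA reads to GRCm38 with STAR and estimated transcript abundance with salmon. The submitters' records give reads of 76 bases, and their processing notes name TopHat2 2.0.7, HTSeq 0.5.3p9, DESeq2 and mm10. The values the authors deposited are DESeq2 variance-stabilized counts in log2 units. Inverting this transformation returned normalized counts, which correspond to whole reads for 100% of values (tolerance 0.01). Of 23179 genes, the 21218 that reached 10 normalized counts in 4 or more libraries entered limma-trend fits (R 4.3.3, limma 3.58.1) of log2(normalized count + 1), all libraries in 1 fit with group as the only term, two-sided, with Benjamini-Hochberg adjustment over all genes tested within each comparison. Fold changes are on this scale. Exact permutation tests of single genes compared 4 with 4 libraries, 54 tests in all, and are given unadjusted. Groups without overlap always give the smallest P value that these tests allow. The fit was tested on simulated data. Replicates differed by far more than sampling noise. Named genes were the 9 members, the other genes of the axis with an unadjusted P below 0.05 in any comparison, and 3 nearest genes for each member, of which 1 is not reported here. The members and lists were chosen with earlier results of these data known. Gene positions and transcript lengths came from GENCODE M21 on GRCm38 and promoter windows from RefSeq on GRCm38.p6. Alternatives were another pseudocount, no filter, the deposited values, limma-voom with TMM factors, quantile normalization, only the 8 libraries compared, array weights, a replicate block, marker levels as terms and leaving out each library.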

Additional observations from a re-analysis of the deposited data

Results flagged for a closer look

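Within groups of 4 libraries, 3 values lay farther from the other 3 than Dixon's 95% limit allows, out of 36 group and gene combinations examined, and chance alone flags about 1 in 20. Igfbp3 in DIO-LFD replicate 1 was 24197 normalized counts, against 2446 to 3018 in the rest of its group. That library also had the highest levels of Igfbp4, Igfbp7 and Ghr among all 16, the lowest of Igfbp5, the lowest fibroblast and progenitor score and the highest endothelial score. The part of its cell content in the Igfbp3 value was not tested. Igfbp3 in DIO-VSG replicate 2 was 7404, against 2440 to 2898 in the rest of its group. Igfbp2 in DIO-HFD replicate 2 was 347, against 216 to 229 in the rest of its group.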

How the results depend on the processing

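Of the counts of members past the adjusted threshold, all stayed at 0 under every alternative run and with each library left out (range 0 to 0), except with array weights, which gave 4 for DIO-VSG against DIO-HFD and 4 in the test over the 4 groups, where 34.8% of all genes passed. For the other genes of the axis array weights gave 3 of 29 in DIO-HFD relative to CON-LFD (19.8% of all genes), 7 and 4 in DIO-VSG and DIO-LFD against DIO-HFD (17.6% and 8.54%), and 7 in DIO-VSG against CON-LFD (19.9%). With a replicate block the count was 0 in every comparison. Libraries with the same number correlated by −0.609 to 0.534 in their deviations from group means, and 7 of 16 correlated best with their own number. For DIO-LFD and DIO-VSG all 4 were positive (0.0214 to 0.173), but the other pairs of groups held negative ones, and the numbers were not taken to pair the animals. Small differences changed sign between settings, and the cause was not tested. In DIO-HFD relative to CON-LFD, Igfbp2 (0.02) became −0.052 on the deposited scale, −0.0078 with quantile normalization, −0.75 with array weights and −0.018 with the fibroblast term, Igfbp6 (0.07) became −0.039 with the fibroblast term, and array weights gave 0.19 for Igfbp5, 0.0047 for Igfbp7 and −0.057 for Ghr. In DIO-LFD relative to DIO-HFD, Igfbp5 became 0.0033 with the lymphoid term and 0.33 with the fibroblast term, and Ghr −0.046 with quantile normalization. In DIO-VSG, the lymphoid term gave 0.041 for Igf1 against DIO-HFD and 0.23 for Ghr against CON-LFD, and Igfbp3 against CON-LFD became −0.27 with array weights and −0.29 with the fibroblast term. For DIO-LFD against CON-LFD, Igf1 became 0.20 with the lymphoid and 0.012 with the fibroblast term, Igfbp5 0.17 with array weights and 0.13 with the fibroblast term, and array weights gave −0.17 for Igfbp3 and −0.013 for Igfbp4. Leaving out single libraries in DIO-HFD relative to CON-LFD gave ranges of −0.38 to 0.11 for Igf1, −0.44 to 0.41 for Igfbp2, −0.36 to 0.24 for Igfbp5, −0.30 to 0.51 for Igfbp6 and −0.074 to 0.59 for Ghr. For DIO-LFD against DIO-HFD the ranges were −0.20 to 0.38 for Igf1, −0.56 to 0.50 for Igfbp5, −0.072 to 0.91 for Igfbp6 and −0.28 to 0.38 for Ghr. For Igfbp3 they were −0.81 to 0.36 in DIO-VSG relative to DIO-LFD and −0.34 to 0.19 in DIO-VSG relative to CON-LFD. For DIO-LFD against CON-LFD they were −0.29 to 0.20 for Igf1, −0.010 to 0.20 for Igf1r, −0.33 to 0.77 for Igfbp3, −0.11 to 0.21 for Igfbp4, −0.68 to 0.38 for Igfbp5, −0.0041 to 0.98 for Igfbp6, −0.050 to 0.13 for Igfbp7 and −0.032 to 0.60 for Ghr. At the depth of these libraries counting error was small beside the differences between mice, and 4 libraries per group limit the precision.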
